A study of Mus musculus with 16 samples.

Results

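The regions described here were stretches of chromatin in tumour-infiltrating CD8+ T cells where a peak was called in all 4 libraries of LC3-GFP(neg) cells and in none of the 4 libraries of LC3-GFP(pos) cells. They are called negative-only regions below. Peaks of the 8 tumour libraries were merged where they overlapped by 1 bp or more, which gave 72327 regions, and 750 of them (1.04%) met the rule. The regions were chosen by these tumour peak calls, so their presence in LC3-GFP(neg) and absence in LC3-GFP(pos) tumour cells is a description and was not tested. A region with no called peak is not shown to be closed, since a peak is called only past the authors' threshold. They ran from 513 to 4594 bp, with a median of 1112 bp, and together covered 916 kb of the mm10 build.

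All cells were CD8+ T cells of Pmel-LC3-GFP-RFP mice, a line in which T cells recognise a pigment cell antigen and LC3 is fused to fluorescent reporters. In every group, including the LC3-GFP(pos) one, the T cells had been activated through CD3 and CD28 (2 µg/ml of each antibody) in 100 IU/ml IL2 over 3 days, had received carbon monoxide (CO) for 24 h, and had then been sorted by reporter signal. The tumour groups, 4 LC3-GFP(neg) and 4 LC3-GFP(pos) libraries of 1 mouse each, came from C57BL/6 mice with B16-F10 melanoma. These received sorted T cells on day 12 of tumour growth, and 15 days later the Vβ13+CD8+ fraction of each tumour was taken by cell sorting. The in vitro groups, 2 LC3-GFP(neg) and 2 LC3-GFP(pos) ATAC libraries and as many RNA libraries of each, came from sorted cells that were not transferred. Thus the LC3-GFP name of a tumour library is that of the transferred cells, and Vβ13 and CD8 mark the recovered cells without telling donor cells from any host T cells that carry both.

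In ATAC-seq the Tn5 transposase cuts DNA that is not covered by nucleosomes, and open regions away from gene starts are often enhancers, which bind transcription factors and act on genes at a distance. LC3 is a small protein that is joined to the membranes of autophagosomes, the vesicles that carry cell material to the lysosome. In T cells within tumours, regulatory regions open and close as cells take up effector, memory or exhausted states, so that sets of distal regions are widely used to tell such states apart.

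Few of the regions were promoters, and these are shown first because theirs are the sequences that an annotation places. A start of the RefSeq promoter table lay inside 50 negative-only regions, with 62 promoters of 52 genes, 37 of them protein-coding. The gene annotation used for distances, which holds other starts, put a protein-coding start inside 51. Of the 37, the 4 genes with the highest enrichment of the region in tumour LC3-GFP(neg) cells were Epdr1, Gstm5, Zfp941 and Sun1. The Sun1 start in question, at chr5:139215158, is an internal one, since the annotated gene begins at 139200564. Gcnt2, Spp1 and Sulf2 were the genes of this kind whose RNA passed the test between the sorted populations, and were chosen for that. The 300 bases are those of RefSeq on GRCm38.p6, from 250 before to 50 after the start, 5′ to 3′ on the strand of the gene. Capitals mark the letters of the motifs that were searched on both strands and found. They were AGGTGTG for T-box factors, TGANTCA for AP-1, TGACNNNGC for NRF2 and BACH, GCGCANGC for NRF1, GGGCGG for SP and KLF factors, CCGGAAG for ETS, TGTGGT for RUNX, TGGAAA for NFAT, GAAANNGAA for IRF, AAGATGGC for YY1, CCAAT for the CCAAT box and TATAAA for the TATA box. The AP-1 letters and those of NRF2 and BACH can share bases, as can a CCAAT box and any motif beside it.
Epdr1, chr13:19619781-19620080, minus strand: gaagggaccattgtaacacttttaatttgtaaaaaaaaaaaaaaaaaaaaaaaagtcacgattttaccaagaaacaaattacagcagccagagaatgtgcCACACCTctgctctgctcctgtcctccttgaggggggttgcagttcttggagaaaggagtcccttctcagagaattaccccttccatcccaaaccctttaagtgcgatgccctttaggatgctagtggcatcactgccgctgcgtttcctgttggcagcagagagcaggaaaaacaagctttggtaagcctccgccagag
Gstm5, chr3:107895604-107895903, plus strand: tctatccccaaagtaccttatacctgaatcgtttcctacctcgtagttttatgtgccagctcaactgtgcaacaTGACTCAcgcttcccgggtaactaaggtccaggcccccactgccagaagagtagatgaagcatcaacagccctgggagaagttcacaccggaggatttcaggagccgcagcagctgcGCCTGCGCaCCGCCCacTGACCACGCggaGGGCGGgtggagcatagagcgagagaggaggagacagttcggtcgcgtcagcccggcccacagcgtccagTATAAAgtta
Zfp941, chr7:140822129-140822428, minus strand: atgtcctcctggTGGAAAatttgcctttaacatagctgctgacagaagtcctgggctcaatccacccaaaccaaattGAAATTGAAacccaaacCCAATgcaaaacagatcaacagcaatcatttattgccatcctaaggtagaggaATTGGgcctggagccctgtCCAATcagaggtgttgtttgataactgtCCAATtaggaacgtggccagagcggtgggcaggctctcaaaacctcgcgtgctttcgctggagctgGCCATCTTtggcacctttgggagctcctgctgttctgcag
Sun1, chr5:139214908-139215207, plus strand: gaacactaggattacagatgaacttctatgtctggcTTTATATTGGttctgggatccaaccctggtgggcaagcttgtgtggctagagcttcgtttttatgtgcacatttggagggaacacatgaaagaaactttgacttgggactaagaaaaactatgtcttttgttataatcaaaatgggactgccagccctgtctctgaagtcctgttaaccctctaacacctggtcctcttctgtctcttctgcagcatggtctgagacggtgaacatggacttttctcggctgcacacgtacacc
Gcnt2, chr13:40859518-40859817, plus strand: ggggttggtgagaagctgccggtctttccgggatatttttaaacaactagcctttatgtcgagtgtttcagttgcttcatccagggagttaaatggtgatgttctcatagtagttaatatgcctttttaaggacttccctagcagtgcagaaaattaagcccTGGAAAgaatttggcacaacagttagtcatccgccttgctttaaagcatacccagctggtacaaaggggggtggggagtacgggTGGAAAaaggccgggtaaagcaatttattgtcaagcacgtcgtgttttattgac
Spp1, chr5:104434861-104435160, plus strand: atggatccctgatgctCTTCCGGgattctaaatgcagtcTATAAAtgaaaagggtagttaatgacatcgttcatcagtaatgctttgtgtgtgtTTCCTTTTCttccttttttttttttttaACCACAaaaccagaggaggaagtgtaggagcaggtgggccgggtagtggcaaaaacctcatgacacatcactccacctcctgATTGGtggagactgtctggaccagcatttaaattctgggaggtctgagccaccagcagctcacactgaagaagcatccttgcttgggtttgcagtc
Sulf2, chr2:166155236-166155535, minus strand: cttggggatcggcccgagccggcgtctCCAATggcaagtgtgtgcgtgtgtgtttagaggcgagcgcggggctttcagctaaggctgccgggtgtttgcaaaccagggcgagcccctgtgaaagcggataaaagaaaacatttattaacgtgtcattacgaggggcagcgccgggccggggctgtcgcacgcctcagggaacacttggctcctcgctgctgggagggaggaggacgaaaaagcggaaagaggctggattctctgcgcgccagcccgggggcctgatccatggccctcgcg

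The promoters differed in composition. Those printed for Gstm5 and Sulf2 held 18 and 26 CpG dinucleotides in 300 bases, and those of Epdr1, Sun1 and Spp1 held 5, 4 and 3. A second Sulf2 promoter in M332 (chr2:166155634-166155933), which is not printed, held 12 CpG and the NFAT, SP and KLF and TATA letters. Over the 62 promoters the median ratio of observed to expected CpG was 0.505, against 0.384 over all 32851 promoters of the table and 0.788 over the 12491 promoters whose start lay in a region called in all 8 tumour libraries. Thus the negative-only promoters were less CpG-rich than those open in every tumour library. The GGGCGG letters of SP and KLF factors were in 31 of the 62, against 35.7% of all promoters and 66.8% of those open in all 8 libraries. The TATAAA letters were in 19.4%, against 13.6% and 6.0%, and the AP-1 letters in 11.3%, against 7.8% and 4.6%. The CCAAT letters were in 21.0%, against 37.4% and 37.5%. A match in these windows is a description and not a bound site.

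The 12 ATAC libraries differed in the number of peaks, and the peak lists do not give their depth. Tumour LC3-GFP(neg) libraries 1 to 4 held 41435, 55171, 35758 and 33704 peaks, against 27406, 37154, 36539 and 37477 in tumour LC3-GFP(pos) libraries 1 to 4. The in vitro libraries held 56476 and 49634 peaks for LC3-GFP(neg) and 63761 and 53869 for LC3-GFP(pos). Tumour LC3-GFP(neg) replicate 2 stood apart, since 22250 regions were called in it alone, against 101 to 2355 in each of the other tumour libraries. It was also the tumour library with peaks at the starts of 11 of 12 macrophage, monocyte and dendritic genes, where the others had 5 to 7, and of the myeloid genes Lyz2, Spi1, S100a8 and Csf3r, where the others had none. Starts of 8 to 10 of 10 T cell genes carried a peak in every library, and those of 4 of 8 melanoma genes (Mlana, Pmel, Mitf and Gpnmb) carried one in every library, whereas those of Tyr, Tyrp1, Dct and Sox10 carried one in none. Of 7 B cell genes, 0 to 1 had a peak at the start in the tumour libraries and 2 and 3 in the in vitro LC3-GFP(neg), against 5 and 6 in the in vitro LC3-GFP(pos) libraries. No gene of the 8 marker lists (55 genes placed) had a negative-only region, in its body or in the 2 kb upstream. Over all genes with a tumour region 2.5% held one, so lists this short could hold none, and nothing is read from this count. The start of Cd68, a macrophage gene, carried a peak in tumour LC3-GFP(neg) libraries 1, 2 and 4 and in no tumour LC3-GFP(pos) library. That of H2-Aa, of the same list, carried one in 3 LC3-GFP(neg) and all 4 LC3-GFP(pos) tumour libraries. The part of these differences in the results was not tested. In libraries made from many cells, fewer cells with an open region and weaker opening in each cell cannot be told apart.

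**Figure D1:**
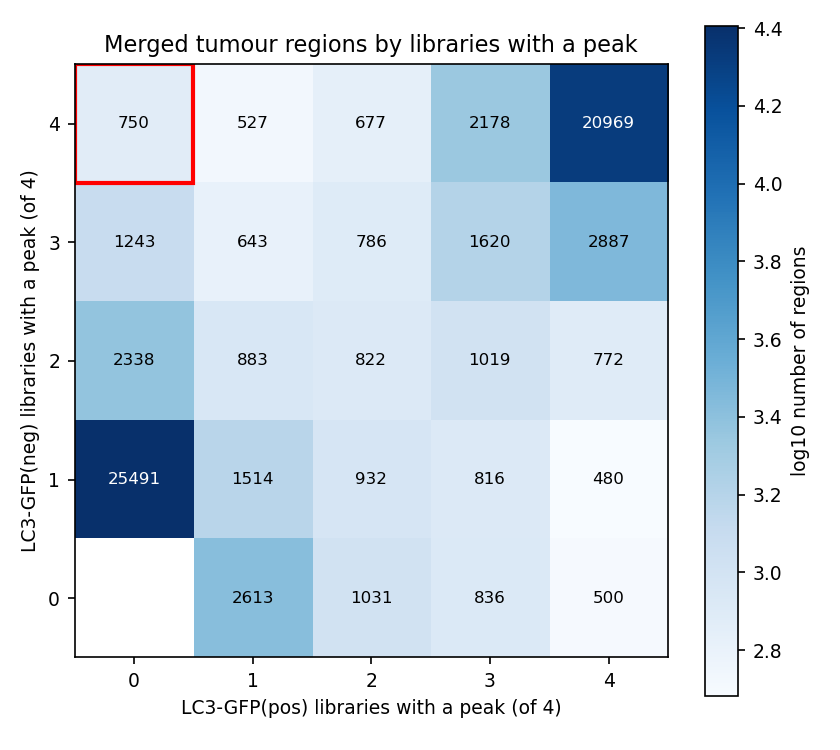
Merged tumour regions by the number of LC3-GFP(neg) libraries (vertical axis) and LC3-GFP(pos) libraries (horizontal axis) with a peak, with the number of regions in each square and the colour on a log10 scale. The framed square holds the 750 negative-only regions, beside 527 with 1 LC3-GFP(pos) library added and above 1243 that lacked 1 LC3-GFP(neg) library.

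The rule cut through a gradient of calls. Just outside it lay 1243 regions with a peak in 3 LC3-GFP(neg) and no LC3-GFP(pos) libraries, and 527 with a peak in all 4 LC3-GFP(neg) and 1 LC3-GFP(pos) library. The LC3-GFP(neg) library that was missing was replicate 2 in 568 of the 1243 (45.7%), replicate 4 in 363, replicate 3 in 178 and replicate 1 in 134. The LC3-GFP(pos) library that added its peak was replicate 2 in 288 of the 527 (54.6%), replicate 4 in 131, replicate 3 in 95 and replicate 1 in 13. Just inside, the weakest of a region's 4 LC3-GFP(neg) peaks had a median -log10 q of 4.79, with a lowest value of 1.54, and 348 regions had all 4 peaks at 5 or more. Just outside, the single LC3-GFP(pos) peak had a median -log10 q of 4.66, with a lowest value of 1.40. Leaving out a library loosens the rule, which by itself tends to raise the count. In place of 750 regions, the rule would have found 1319 without LC3-GFP(neg) replicate 2, and 884, 929 and 1110 without replicates 1, 3 and 4. With each library held to its 27406 strongest peaks it would have found 308. Regions of the opposite kind, with a peak in all 4 LC3-GFP(pos) and no LC3-GFP(neg) library, numbered 500. They numbered 611 without LC3-GFP(neg) replicate 2 and 770 with 27406 peaks per library. Without LC3-GFP(pos) replicate 1 there were 763 negative-only regions and 1208 of the opposite kind.

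Within their own libraries these were peaks of middling height. The authors' fold enrichment over local background had medians of 5.87, 4.01, 4.75 and 4.58 in LC3-GFP(neg) libraries 1 to 4, against 6.00, 4.18, 5.21 and 5.30 over all peaks of the same libraries. The median pileup at the summit, the number of reads or fragments stacked there, was 23, 32, 23 and 17, against 40, 35, 46 and 39 over all peaks. Ranked by fold among the peaks of its library, the median region stood at percentile 48.6, 45.2, 41.5 and 35.8. In every one of the 4 the negative-only regions had the lower median on both scales.

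**Figure D2:**
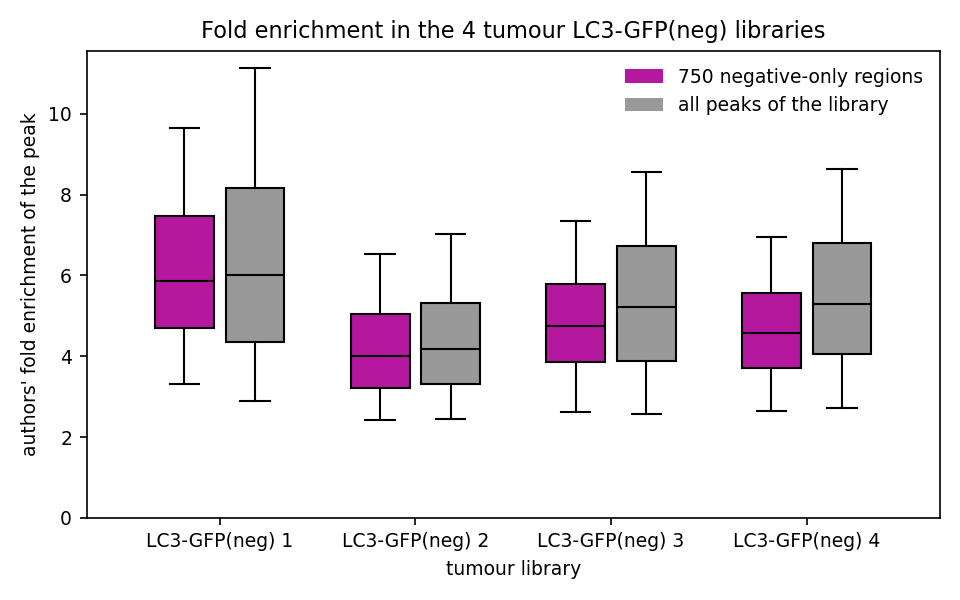
The authors' fold enrichment (vertical axis) in each tumour LC3-GFP(neg) library, for the 750 negative-only regions at the left of each pair and for all peaks of the library at the right; boxes run from the 25th to the 75th percentile with the median as a line, and whiskers from the 5th to the 95th. The boxes overlap in every library, with medians of the negative-only regions from 4.01 to 5.87.

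The regions with the highest enrichment, ranked by their mean percentile in the 4 tumour LC3-GFP(neg) libraries, were mostly distal. Of the top 20, whose mean percentiles ran from 79.8 to 91.4, 9 touched a gene body or the 2 kb upstream of it, and 11 lay outside protein-coding genes. The first, M001 (chr13:22714105-22714873), lay 11749 bp from the start of the vomeronasal receptor gene Vmn1r207, with folds of 14.4, 5.06, 10.1 and 8.90. The second, M002 (chr6:146185119-146186301), lay in Itpr2, which encodes a receptor channel that releases calcium from the endoplasmic reticulum, with folds of 9.55, 6.33, 8.34 and 8.76. M003 lay 5413 bp from the start of the myosin gene Myo1d, with folds of 12.0, 6.23, 7.81 and 7.55. M004 held the start of Epdr1, with folds of 13.0, 6.93, 7.50 and 6.67. The library with the highest fold was LC3-GFP(neg) 1 in each of these 4. The other genes touched were Fhad1 (M005), Babam2 (M007), Rbm20 (M009), Bcr (M013), Sema6d (M015), Myh10 (M016) and Scn3b (M020). M007 lay in Babam2, a subunit of complexes that remove ubiquitin chains. M016 lay in Myh10, the heavy chain of a non-muscle myosin, and had folds of 8.35, 8.32, 8.46 and 5.53.

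The remaining 9 of the 20 lay nearest to the starts of Prrg4, Npy, Ehd3, Krtdap, Dock10, Mpp6, Basp1, Pxdc1 and Popdc2, at 6622 bp (Krtdap) to 165206 bp (Npy). At the other end of the ranking, the 5 lowest were M746 in Sla and Tg, M747 in Aopep, M748 near Tnfaip3, M749 in Msl2 and M750 in Kif21b. Their folds ran from 1.52 to 2.77 in the 4 libraries. Thus the whole set spanned folds of 1.52 to 14.4.

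Most of the regions were already called in cells that had not been transferred. The in vitro libraries were not used to choose the regions. Of the 750, 543 (72.4%) carried a peak in all 4 in vitro libraries and 59 (7.87%) in none, against 48.3% of all tumour regions with a peak in all 4 and 30.4% with a peak in none. Regions called in all 8 tumour libraries reached 95.6%. The 500 regions of the opposite kind, with a peak in all 4 LC3-GFP(pos) and no LC3-GFP(neg) tumour library (positive-only regions), reached 28.4%, and 35.6% of them had no in vitro peak. The neighbours of the rule fell around the negative-only share, at 76.1% where 1 LC3-GFP(pos) library was added and at 52.9% where 1 LC3-GFP(neg) library was missing. Regions with a peak in 1 LC3-GFP(neg) tumour library alone reached 11.9%, and 62.9% of them had no in vitro peak. They were 25491 of the 72327 tumour regions, mostly from replicate 2, and they pull down the 48.3% over all tumour regions. That share is thus a low bar for the negative-only regions. Without tumour LC3-GFP(neg) replicate 2 the share of negative-only regions was 60.6%, and that of positive-only regions 33.9%.

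In vitro, the regions did not separate the populations the way they did in the tumour. A peak was present at 85.7% and 79.3% of them in the LC3-GFP(neg) libraries, against 88.0% and 81.2% in the LC3-GFP(pos) libraries. The means were 82.5 ± 4.53% and 84.6 ± 4.81% (SD, n = 2 each), a difference of -2.07 percentage points with a two-sided exact permutation p of 0.667, where the smallest p that 2 against 2 allows is 0.33. Over all tumour regions the means were 57.5% and 60.6%, a difference of -3.14 points in the same direction. The libraries of the populations overlapped, and within each population the library with more peaks had the higher share. The sign of the difference turned with the libraries used, from -5.47 to 1.55 points as each of the 12 was left out, and it was 1.6 points with 49634 peaks kept in each in vitro library. Of the 750 regions, 6 (0.8%) had a peak in both in vitro LC3-GFP(neg) and no LC3-GFP(pos) library, where 1.59% of all tumour regions did. The reverse, a peak in both LC3-GFP(pos) and no LC3-GFP(neg) library, was seen at 17 (2.27%), where 3.45% of all tumour regions did. Positive-only regions had peaks in 56.4% and 47.2% of cases in LC3-GFP(neg) and 43.2% and 33.8% in LC3-GFP(pos) libraries in vitro, a difference of 13.3 points (exact permutation p = 0.33, the smallest possible). At the negative-only regions that were called in vitro, the median fold was 5.40 and 5.53 in LC3-GFP(neg) and 4.60 and 4.99 in LC3-GFP(pos) libraries, each above the median of all peaks of that library (4.75, 5.03, 4.17 and 4.70).

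**Figure D3:**
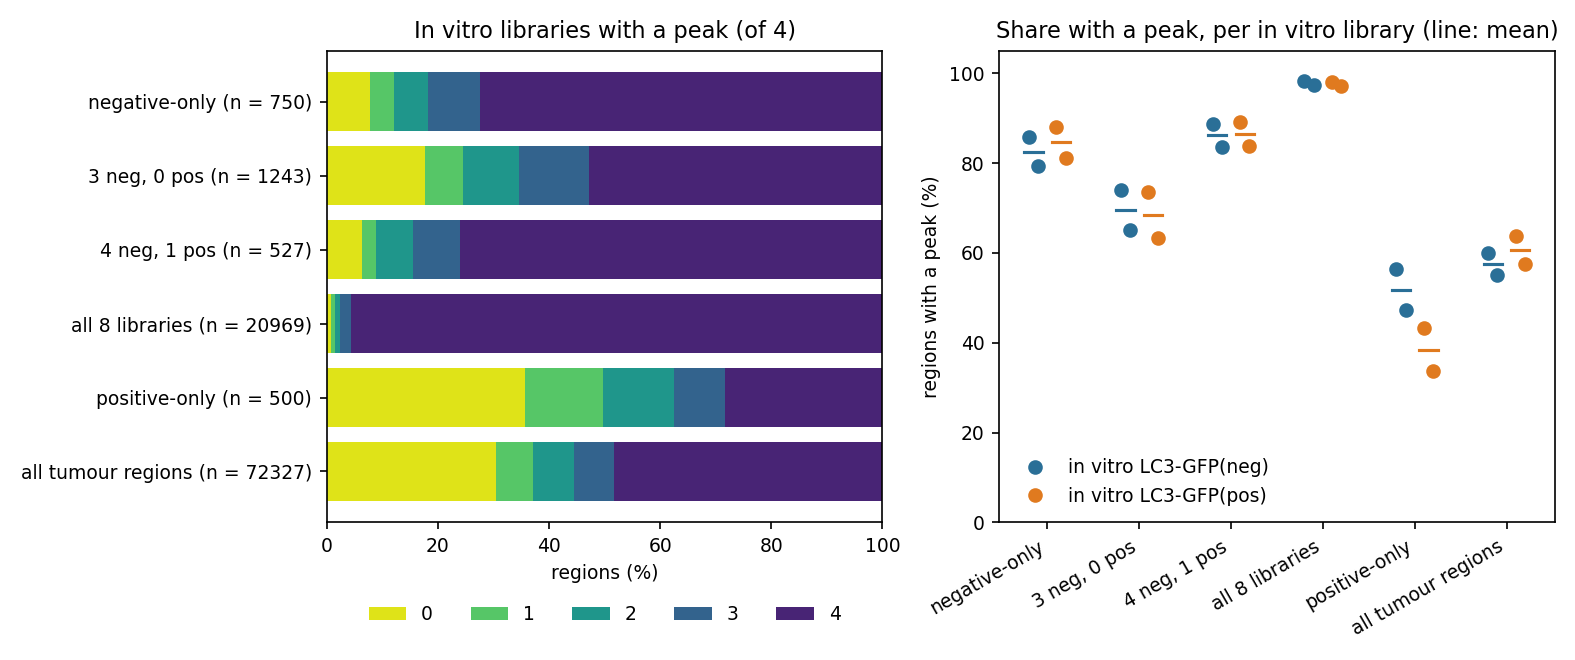
In vitro state of tumour regions grouped by their tumour peaks. Left, the share of regions (horizontal axis, %) with a peak in 0, 1, 2, 3 or 4 of the 4 in vitro libraries, where 72.4% of the negative-only and 28.4% of the positive-only regions had a peak in all 4. Right, the share with a peak (vertical axis, %) in each in vitro library as points, with the mean as a line, for LC3-GFP(neg) at the left and LC3-GFP(pos) at the right of each pair.

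The 6 regions called in every LC3-GFP(neg) and no LC3-GFP(pos) library, both in vitro and in the tumour, are named here because they are so few. They lay in Igf2bp2 (M587), Rgs3 (M524), Rab11fip1 (M719) and Ocln (M423), 43099 bp from the start of Epas1 (M058) and 84718 bp from the start of Cd44 (M678). Igf2bp2 encodes an RNA-binding protein and Rgs3 a regulator of G protein signalling, and the RNA of both was higher in sorted LC3-GFP(neg) cells in the quasi-likelihood test of edgeR (Benjamini-Hochberg adjusted over all genes, called at 0.05). RNA levels are in CPM, with no correction for gene length. The count of a gene was scaled by the summed counts of the tested genes in its library times the TMM factor of edgeR. Rgs3 stood at 77.6 and 78.0 CPM in LC3-GFP(neg), against 53.1 and 49.5 CPM in LC3-GFP(pos) libraries (log2 fold change 0.60, adjusted p = 2.84e-06). Epas1, which encodes the hypoxia-inducible factor HIF-2α, stood at 21.0 and 22.7 CPM in LC3-GFP(neg), against 9.69 and 12.1 CPM in LC3-GFP(pos) libraries (log2 fold change 1.01, adjusted p = 1.58e-05). Rab11fip1 had a log2 fold change of 0.18 (adjusted p = 0.092), Cd44 one of -0.02 (adjusted p = 0.802), and Ocln was too low to be tested.

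The 59 regions without any in vitro peak, which were thus called in transferred LC3-GFP(neg) cells alone, included 27 that touched a gene each, of which 21 genes were tested in RNA. Of the 21, 8 were called higher in sorted LC3-GFP(neg) cells (38.1%, against 13.6% of all genes tested) and none lower (against 11.3%), with a median log2 fold change of 0.17. The 8 were Il18rap, Gcnt2, Adamts14, Sema6d, Pou2f2, Aim2, Tbc1d9b and Pitpnc1, from 1.05 down to 0.17 on the log2 scale. Il18rap encodes the accessory chain of the interleukin-18 receptor, Pou2f2 the octamer-binding factor OCT2 and Aim2 a sensor of cytosolic DNA. These RNA values come from cells before transfer, and the region was called only after it. M741 in Tbx21, which encodes T-BET, a factor of effector differentiation, and M215 in Pfkfb3, which encodes a regulator of glycolysis, were also of this kind, and the RNA of neither gene passed the test (log2 fold changes of 0.09 and 0.10).

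Some regions near genes of T cell activation were picked after their values were seen. M447 (chr1:94074436-94075501) lay 21883 bp from the start of Pdcd1, which encodes the inhibitory receptor PD-1, with folds of 5.72, 3.56, 4.59 and 4.91 in tumour LC3-GFP(neg) libraries and no in vitro peak. An upstream enhancer of Pdcd1 is known in exhausted mouse CD8+ T cells, and M447 was not matched to it. Pdcd1 RNA stood at 59.9 and 62.1 CPM in LC3-GFP(neg), against 61.6 and 58.3 CPM in LC3-GFP(pos) sorted cells, and the libraries overlapped. M748 lay 49138 bp from the start of Tnfaip3, which encodes the NF-κB inhibitor A20, and 11581 bp from a further negative-only region, M039. M748 was among the 5 regions ranked lowest, with folds of 2.77, 1.90, 1.52 and 2.08 in tumour LC3-GFP(neg) libraries. It had no in vitro peak. M039 had folds of 9.02, 6.44, 5.67 and 6.63 and a peak in all 4 in vitro libraries. Tnfaip3 RNA stood at 59.5 and 61.4 CPM in LC3-GFP(neg), against 46.9 and 40.9 CPM in LC3-GFP(pos) cells, and was higher in LC3-GFP(neg) (log2 fold change 0.46, adjusted p = 0.000225). M575, in Nxpe3 and without an in vitro peak, lay 8285 bp from the start of Nfkbiz, a nuclear modulator of NF-κB, whose RNA was also higher (log2 fold change 0.39, adjusted p = 0.0122).

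Negative-only regions lay mostly away from gene starts. Of the 750, 57 (7.6%) lay within 1 kb of a protein-coding gene start, against 18.3% of all tumour regions and 49.96% of those called in all 8 tumour libraries, whereas 1.8% of the positive-only regions did. The median distance to the nearest start was 26.2 kb, against 17.6 kb for all tumour regions, 1.04 kb for regions in all 8 libraries and 34.7 kb for positive-only regions. In all, 425 (56.7%) touched a gene body or the 2 kb upstream, against 64.1% of all tumour regions. Regions that missed the rule by 1 library had 8.21% (1 LC3-GFP(neg) library missing) and 10.2% (1 LC3-GFP(pos) library added) within 1 kb of a start, close to the negative-only share. Regions in 1 LC3-GFP(neg) tumour library alone, 25491 of the 72327, had 4.20% and pull down the 18.3% over all tumour regions. These are descriptions with no test. The X chromosome held 6 of the 750 (0.8%), against 2.26% of all tumour regions. The share was as low in positive-only regions (0.8%) and where 1 LC3-GFP(pos) library was added (0.57%). In all, 122 negative-only regions (16.3%) lay within 50 kb of another, and this spacing was not computed for other regions.

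**Figure D4:**
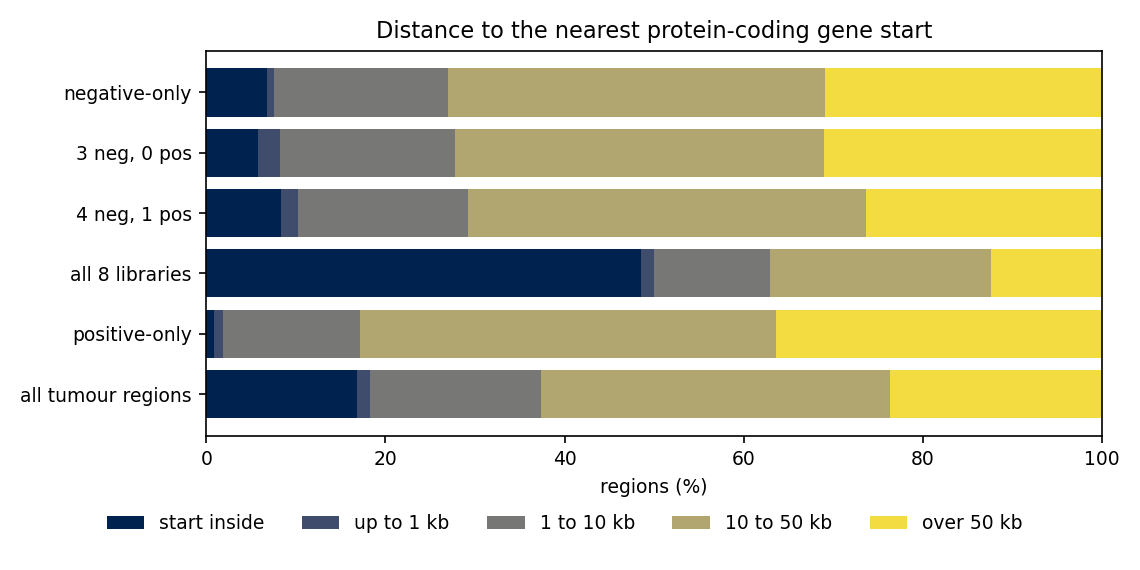
Distance from a region to the nearest protein-coding gene start, as the share of regions (horizontal axis, %) in each class, for groups of tumour regions defined by their tumour peaks. The negative-only regions have a start inside in 6.8% of cases and lie over 50 kb from one in 30.9%, against 48.5% and 12.3% for regions called in all 8 libraries.

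The 425 regions touched 393 protein-coding genes, which was 2.5% of the 15720 genes with any tumour region. Hivep3, which encodes a large zinc finger protein that binds κB-like motifs, held the most, with 5 of its 31 tumour regions negative-only (M074, M118, M373, M576 and M601). Of these, 4 had a peak in all 4 in vitro libraries, and M601 had one in both LC3-GFP(pos) and neither LC3-GFP(neg) library. Its RNA was lower in sorted LC3-GFP(neg) cells, at 24.8 and 26.9 CPM, against 38.3 and 35.2 CPM in LC3-GFP(pos) cells (log2 fold change -0.51, adjusted p = 0.000348). Gldc, which encodes glycine decarboxylase of the mitochondrial glycine cleavage system, held 3 of its 4 regions, and the glutamate transporter gene Slc1a2 3 of 15. Both had RNA under 1 CPM in every library. A further 33 genes held 2 each, which in alphabetical order began with Aknad1, Atg10, Babam2, Bcar1, Ccdc148, Chst11 and Dnah12. Atg10 encodes an enzyme of autophagosome formation, and its RNA had a log2 fold change of -0.20 (adjusted p = 0.556).

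Of 354 genes on 15 lists of T cell biology, stress, autophagy and metabolism, 17 held a negative-only region, 1 each, where 2.5% of all genes with a tumour region held one. Effector genes had it at 3 of 28 (Tbx21, Stat4 and Il18rap), T cell receptor and costimulation genes at 3 of 30 (Fyn, Ptprc and Cd226), and inhibitory receptor and exhaustion genes at 2 of 22 (Tox2 and Vsir). Memory and stemness genes had it at 2 of 22 (Bach2 and Cxcr5), and cytokine receptor and JAK-STAT genes at 2 of 23 (Stat3 and Stat5b). The others were Cd44, an adhesion receptor, the ETS factor gene Etv6, Pfkfb3, the mitochondrial deacetylase gene Sirt3 and Arid1a, a subunit of a chromatin remodelling complex. None of the genes listed for autophagy and mitophagy (34), PERK and the integrated stress response (25), AP-1, BATF, IRF and NFAT factors (24), apoptosis and survival (16) or heme, NRF2 and iron (14) held one, and at a share of 2.5% a list of this length would often hold none. These lists are not complete: Atg10, described above, and the BCL2 family gene Bmf, with M616, are not on them. A gene with more tumour regions has more chances to hold a negative-only one, and the counts were not adjusted for this. Of the 17 regions, 10 had a peak in all 4 in vitro libraries and 3 in none.

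The mean percentiles of the 17 regions ran from 2.81 to 59.0, and 4 of them stood at 40 or higher. M178 in Etv6 had folds of 6.89, 4.58, 6.50 and 5.02 and M215 in Pfkfb3 had 6.00, 4.86, 4.38 and 6.79. M363 in Sirt3 had 5.64, 4.20, 5.65 and 4.21, and M444 in Fyn, a kinase of T cell receptor signalling, had 6.12, 4.43, 3.56 and 4.45. The lowest of them, M741 in Tbx21 (chr11:97109150-97110260), had folds of 2.91, 2.41, 1.97 and 2.00. M628 in Vsir, which encodes the inhibitory receptor VISTA, had 5.75, 2.67, 3.65 and 3.51, and also touched Cdh23, which overlaps Vsir. M582 in Bach2, which encodes a repressor that favours memory over effector fate, had 5.11, 2.49, 4.45 and 4.58. M666 in Tox2, a relative of the exhaustion factor TOX, had 4.30, 3.03, 3.26 and 3.36.

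RNA of the same sorted populations was available before transfer, at 15850657 and 14567540 total counts in LC3-GFP(neg) and 17557628 and 15605902 in LC3-GFP(pos) libraries. The labels do not say whether replicates came from separate animals or cultures, so p-values measure the spread between these libraries, which may be technical. Of 293 tested genes with a negative-only region, 63 (21.5%) were called higher in LC3-GFP(neg) cells, against 13.6% of all 12022 genes tested, and 33 (11.3%) were called lower, against 11.3%. Their median log2 fold change was 0.03, against -0.01 over the 11345 tested genes with any tumour region. Genes with a positive-only region had 14.5% higher and 11.3% lower in LC3-GFP(neg), and genes with a region that added 1 LC3-GFP(pos) library had 22.2% and 12.8%. Beside these calls, B cell marker RNA summed to 4.85 and 5.59 CPM in LC3-GFP(neg), against 13.3 and 12.7 CPM in LC3-GFP(pos) libraries, and its part in them was not tested. The calls depended on the libraries and scaling. With total counts as library sizes 52 were higher and 53 lower, so that the higher share of the calls was 49.5% in place of 65.6%, and over all genes it was 34.9% in place of 54.6%. Without LC3-GFP(pos) replicate 1 there were 45 higher and 16 lower, and 1722 calls over all genes, against 3000 with all 4 RNA libraries. Without LC3-GFP(pos) replicate 2 there were 1806 calls over all genes. With the regions found without tumour LC3-GFP(neg) replicate 2, 102 genes were higher and 43 lower.

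Among those called higher with the libraries of the populations apart, Txk, a kinase of the TEC family, stood at 53.1 and 57.8 CPM in LC3-GFP(neg), against 20.1 and 15.9 CPM in LC3-GFP(pos) libraries. Its log2 fold change was 1.61 ± 0.10 (SE, adjusted p = 1.65e-09), and M293 lay in its body, with folds of 6.14, 4.31, 4.67 and 5.65 in the tumour LC3-GFP(neg) libraries and a peak in all 4 in vitro libraries. Il18rap stood at 60.6 and 59.4 CPM, against 29.8 and 28.0 CPM in LC3-GFP(pos), with a log2 fold change of 1.05 ± 0.08 (SE, adjusted p = 1.51e-08). Its region M707 had no in vitro peak and folds of 4.03, 2.64, 2.85 and 2.46. Myo16, a myosin gene with the highest log2 fold change of the set (1.65 ± 0.30 SE), stood at 4.27 and 4.27 CPM, against 1.62 and 1.07 CPM in LC3-GFP(pos). Bcar1, which encodes an adaptor of integrin signalling and held 2 negative-only regions, stood at 15.6 and 18.5 CPM, against 8.41 and 6.34 CPM in LC3-GFP(pos). Lmna (lamin A and C), Setbp1, Igf2bp2, the TGF-β-binding gene Ltbp3, the glycan-branching enzyme gene Gcnt2 and the PI3K adaptor gene Pik3ap1 had log2 fold changes of 1.25, 1.16, 1.07, 1.01, 1.00 and 0.92. In all 10 genes, both LC3-GFP(neg) libraries lay above both LC3-GFP(pos) libraries, as their choice required.

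Among those called lower, Il6ra, the interleukin-6 receptor chain, stood at 0.97 and 1.26 CPM in LC3-GFP(neg), against 2.79 and 3.14 CPM in LC3-GFP(pos) libraries (log2 fold change -1.41 ± 0.35 SE). Sulf2, which encodes an extracellular heparan sulfate sulfatase and whose start lay in M332, stood at 8.15 and 7.55 CPM, against 13.2 and 16.7 CPM in LC3-GFP(pos) (-0.92 ± 0.15 SE). Myh10, with M016 among the 20 most enriched regions, stood at 28.6 and 29.7 CPM, against 48.1 and 49.4 CPM in LC3-GFP(pos) (-0.74 ± 0.08 SE). Ankrd33b had a log2 fold change of -1.43, Nhsl2 of -0.63, Tg of -0.59, the semaphorin gene Sema7a of -0.56, the polysialyltransferase gene St8sia4 of -0.49 and Phactr2 of -0.38. Sla lies inside Tg, so the counts of Tg are uncertain, and the negative-only regions M743 and M746 touched both genes. Ankrd33b and Il6ra were not called without LC3-GFP(pos) replicate 2, and Nhsl2, Sema7a and Phactr2 were called neither without LC3-GFP(pos) replicate 1 nor by DESeq2.

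**Figure D5:**
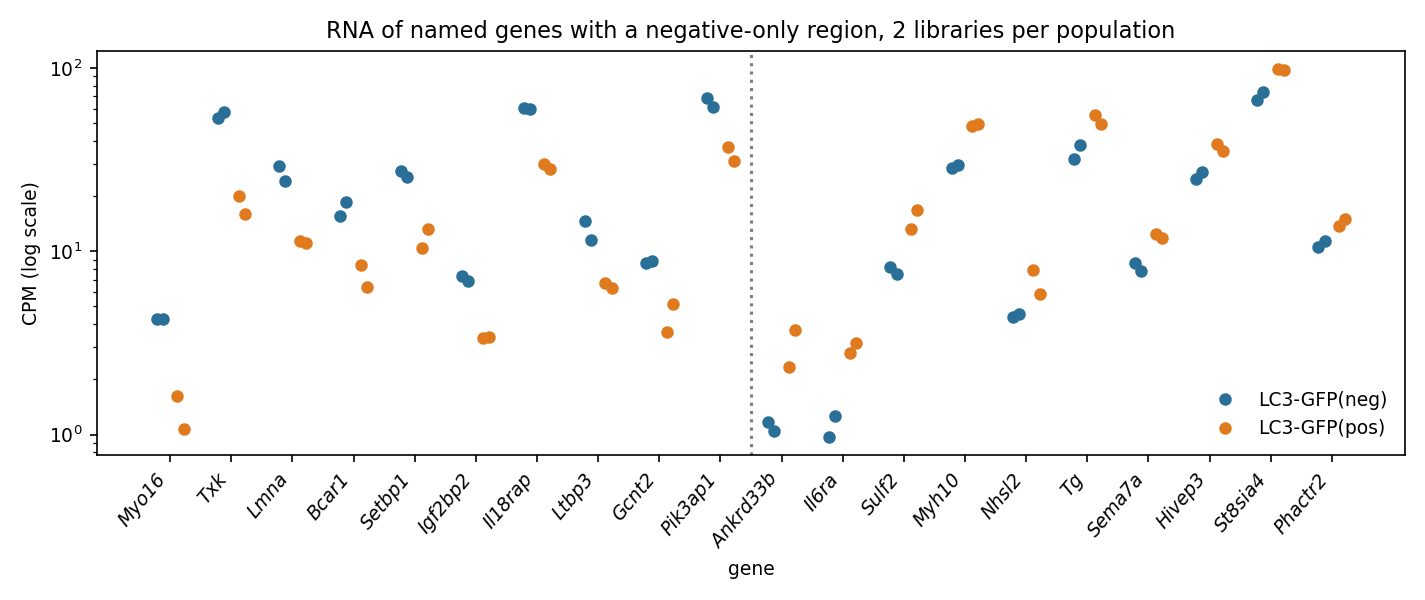
RNA in sorted cells before transfer (vertical axis, CPM on a log scale) for genes with a negative-only tumour region, the 10 called highest left of the dotted line and the 10 called lowest right of it; points are the 2 LC3-GFP(neg) libraries at the left and the 2 LC3-GFP(pos) libraries at the right of each gene. The populations do not overlap in any of the 20, which the choice of genes required.

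Of the 17 list genes, 16 were tested in RNA, and 5 were called higher in LC3-GFP(neg) cells, 1 lower, and 10 did not pass, where 13.6% of all genes tested were called higher and 11.3% lower. Vsir stood at 229 and 210 CPM in LC3-GFP(neg), against 162 and 160 CPM in LC3-GFP(pos) libraries (log2 fold change 0.45, adjusted p = 5.47e-06). Stat4, a transducer of interleukin-12 signals, had a log2 fold change of 0.38, Stat3 one of 0.33 and Fyn one of 0.32, and Il18rap is given above. Cd226, which encodes a costimulatory receptor, was the gene called lower (log2 fold change -0.30, adjusted p = 0.0281), and DESeq2 did not call it. Bach2 had a log2 fold change of 0.18 (adjusted p = 0.063), Tbx21 one of 0.09 and Arid1a one of -0.04, and Cxcr5 stayed near 1 CPM in all libraries.

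Of the 37 protein-coding genes with a start of the promoter table in a negative-only region, 17 were tested in RNA, 2 were called higher in LC3-GFP(neg) and 1 lower. Over all genes tested, 13.6% were called higher and 11.3% lower, so nothing is read from these counts. Spp1, which encodes the secreted protein osteopontin, stood at 32.6 and 25.8 CPM in LC3-GFP(neg), against 16.4 and 15.7 CPM in LC3-GFP(pos) libraries (log2 fold change 0.86, adjusted p = 2.87e-05). Its region M589 had folds of 4.61, 3.46, 4.29 and 3.71 in tumour LC3-GFP(neg) libraries and a peak in 1 LC3-GFP(neg) and 2 LC3-GFP(pos) libraries in vitro. The Spp1 promoter printed above holds ETS, IRF, RUNX, CCAAT and TATA letters. Gcnt2 stood at 8.61 and 8.88 CPM, against 3.62 and 5.15 CPM in LC3-GFP(pos), and its region M370 had no in vitro peak. Epdr1 and Gstm5 stayed between 0.31 and 2.24 CPM and were not called (log2 fold changes of 0.73 and 0.86), and Gstm5 belongs to a family of similar genes among which reads can be split. Sun1, which encodes a protein of the nuclear envelope, stood at 92.6 and 94.5 CPM, against 90.9 and 83.1 CPM in LC3-GFP(pos), and did not pass. These values are for the whole gene and do not tell its internal start from its other starts. For 17 of the 37, among them Vegfc, Cav1, Cxcl2, Pax2 and Gstm7, no entry of the RNA counts was matched. C1ql3, Igdcc4 and Pdgfa were matched but too low to be tested.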

How the data were processed

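ATAC-seq and RNA-seq were read on mm10; per the submitters' processing notes, Partek, cutadapt, BWA and MACS2 were named for ATAC and Partek, STAR and DESeq2 for RNA, with no versions. Peaks were called by the authors in each library, and per the file headers the deposited peak lists give the pileup (a signal), the fold enrichment over local background (a ratio), and the -log10 of p and q values. The peak lists give no read depth, and whether cuts were shifted for Tn5 is not given in the sources used here. The deposited RNA values are estimated counts, 22.5% to 23.8% of them not whole, and were rounded. Regions, overlaps (1 bp or more) and distances were computed with Python 3.11.15, numpy 2.4.6 and pandas 2.3.3, and permutation tests with scipy 1.17.1. Genes were the 21887 protein-coding genes of RefSeq, with 27641 starts; strand was unknown for 1983, and 12527 matched the RNA table. RNA was tested with edgeR 4.0.16 (TMM, quasi-likelihood test, Benjamini-Hochberg adjustment over all 12022 genes left of 13275 by its filter on low counts, called at 0.05), and with DESeq2 1.42.0 as an alternative, in R 4.3.3. Scripts were tested on simulated data. Named were the 20 regions with the highest and the 5 with the lowest mean percentile of fold, all list genes with a region, the 10 genes with most regions (ties in alphabetical order) and the 10 genes called highest and lowest in RNA with the populations apart. The regions, gene lists and rules were chosen with earlier results of these data known.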

Additional observations from a re-analysis of the deposited data

Results flagged for a closer look

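Among 44 groups of 4 tumour libraries checked for a library far from the other 3, 5 stood out. The check expects about 1 in 20 for 4 values of the same scale. The LC3-GFP(neg) libraries differ in fold, with medians of 6.00, 4.18, 5.21 and 5.30 over all peaks. Many of the regions were also picked by fold, so that rate does not apply here. Tumour LC3-GFP(pos) replicate 1 had 27406 peaks, the fewest of its group. At M004, which holds the start of Epdr1, LC3-GFP(neg) replicate 1 had a fold of 12.96, the highest of the 4 libraries. At M014, near Mpp6, the same replicate had the highest fold, 10.64. At M016, in Myh10, LC3-GFP(neg) replicate 4 had the lowest fold, 5.53. At M746, in Sla and Tg, LC3-GFP(neg) replicate 2 had the highest fold, 2.63.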

How the results depend on the processing

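With 27406 peaks kept in each tumour library there were 308 negative-only and 770 positive-only regions. Of these, 88.3% and 41.9% had a peak in every in vitro library. Of the 308, 9.74% lay within 1 kb of a start, and 33 of their genes were called higher and 11 lower. With tumour peaks at -log10 q of 5 or more these in vitro shares were 79.9% and 34.7%, and 21 genes were lower. With in vitro peaks at 5 or more they were 63.2% and 18.4%, and with 49634 in vitro peaks per library 67.9% and 22.0%, where the in vitro difference between LC3-GFP(neg) and LC3-GFP(pos) turned to 1.6 points. Within 2 kb of a start lay 10.1%. Leaving out each library gave 763 to 1319 regions, in vitro shares of 60.6% to 76.5% and 22.2% to 34.8%, a difference of -5.47 to 1.55 points, 45 to 102 genes higher, 16 to 46 lower and 1722 to 3451 RNA calls. The difference turned positive without tumour LC3-GFP(neg) replicate 2 (1.55), in vitro LC3-GFP(neg) replicate 2 (1.13) and in vitro LC3-GFP(pos) replicate 1 (1.33). An alternative chosen after seeing the data, without tumour LC3-GFP(neg) replicate 2 and LC3-GFP(pos) replicate 1, gave 1339 regions, 60.9% in every in vitro library, a difference of 1.61 points and 103 genes higher. DESeq2 made 1733 RNA calls in place of 3000, with 18 genes lower, and total counts as library sizes gave 53 lower. The cause of these changes was not tested. RNA samples with the same number showed no clear pairing. Across genes, replicate 1 minus replicate 2 in LC3-GFP(neg) correlated with the same difference in LC3-GFP(pos) at r = 0.0646. A replicate block gave 3568 calls, with 72 member genes higher and 39 lower. Of 35 named genes, 26 kept the same status, called or not called, in all 8 RNA settings. Among these 26, Arid1a, Cd44, Cxcr5, Pfkfb3, Sirt3, Stat5b and Tbx21 were not called in any setting. A call was lost in some settings by 6 genes (Ankrd33b, Il6ra, Nhsl2, Sema7a, Phactr2 and Cd226) and gained by 3 (Bach2, Etv6 and Ptprc). No called gene changed sign, but Sirt3, Stat5b and Cd44 did in 1 or 2 settings. The depth of the ATAC libraries is unknown, so a missing peak may be a lack of reads, and 3 counts correspond to 0.167 to 0.210 CPM in RNA.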
